A study of Homo sapiens with 8 samples.

Results

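The subject is the binding of tagged RUNX1 around 8 genes through which blood cells receive growth factor signals: the receptor genes EPOR, KIT, CSF3R, CSF2RB, IL6ST, IL6R and IL4R, and the kinase gene JAK2. They were taken as a list of names, chosen with earlier results of these data known. Every peak of 6 CUT&RUN peak lists that touched the stretch from 50 kb before to 50 kb after one of the genes on hg38 was included, whatever gene lay nearest. Peaks of different lists that overlapped by at least 1 bp were joined into 1 region. This gave 52 regions of 33478 in all, and 8 of 20037 protein-coding genes.

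RUNX1 is a transcription factor of blood stem cells, megakaryocytes and lymphocytes that binds DNA together with its partner CBFB. Going by its title, the series asks how phosphorylated serines and threonines of RUNX1 bear on megakaryocytic fate in progenitors that can also turn erythroid. The cells were HEL, an established erythroleukemia line with erythroid and megakaryocytic features. Separate HEL lines, all selected in puromycin, were transduced with HA-tagged wild-type RUNX1 (WT), HA-tagged RUNX1-4A, HA-tagged RUNX1-4D or a vector without insert (empty vector). As phosphosite mutants are commonly named, 4A puts alanine, which cannot be phosphorylated, and 4D puts aspartate, which mimics phosphorylation, in place of serines or threonines. Each line was profiled in 2 biological replicates with an antibody to the HA tag, and the empty vector line was the background in peak calling. The antibody does not read the RUNX1 that the cells make themselves. The promoter of the vector and whether a line came from 1 clone are not given in the sources used here.

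Cytokine receptors of blood cells mostly have no enzyme of their own. When the ligand joins the receptor chains, Janus kinases bound to their inner ends phosphorylate them and STAT factors are recruited. JAK2 serves EPOR and CSF2RB, while IL6ST and IL4R work chiefly with JAK1. KIT differs from the others in the list because it is itself a tyrosine kinase. HEL is known to carry an activating mutation of JAK2 and extra copies of the gene.

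The lists held 5358 to 6764 peaks in replicate 1 and 21122 to 25911 in replicate 2, and their read depth is unknown here. Absence of a region from a list means no call at the depth of that library and leaves unmeasured whether RUNX1 was there. For each peak the files give the authors' fold enrichment over background and −log10 q, and both are used here only to describe or rank peaks. The percentile of a peak is its place by −log10 q within its own list, with 100 as the strongest. No expression was measured, so the markers of HEL could not be checked.

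For 5 genes the called regions reached the transcription start, and the bases before 4 of these starts are shown so that the letters under those regions can be read. They are RefSeq sequences of GRCh38.p14, the 250 bases that precede the start, 5′ to 3′ on the gene's strand. Both strands were searched for the RUNX letters TGTGGT and TGCGGT, the GATA letters AGATAA and the ETS letters CCGGAA. Matches on either strand are in capitals. The first lies at chr5:55994964-55995213 (minus strand), the second at chr1:154405093-154405342 (plus), the third at chr19:11384315-11384564 (minus) and the fourth at chr4:54657707-54657956 (plus).
IL6ST: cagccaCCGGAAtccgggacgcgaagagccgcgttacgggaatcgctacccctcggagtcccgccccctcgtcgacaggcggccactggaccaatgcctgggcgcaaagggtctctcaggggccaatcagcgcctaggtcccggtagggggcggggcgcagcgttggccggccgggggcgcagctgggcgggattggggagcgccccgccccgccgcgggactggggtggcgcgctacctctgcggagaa
IL6R: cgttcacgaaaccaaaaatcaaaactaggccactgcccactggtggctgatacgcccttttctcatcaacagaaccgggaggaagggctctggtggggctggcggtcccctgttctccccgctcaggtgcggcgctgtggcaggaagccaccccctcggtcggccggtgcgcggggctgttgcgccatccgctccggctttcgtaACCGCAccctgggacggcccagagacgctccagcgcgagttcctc
EPOR: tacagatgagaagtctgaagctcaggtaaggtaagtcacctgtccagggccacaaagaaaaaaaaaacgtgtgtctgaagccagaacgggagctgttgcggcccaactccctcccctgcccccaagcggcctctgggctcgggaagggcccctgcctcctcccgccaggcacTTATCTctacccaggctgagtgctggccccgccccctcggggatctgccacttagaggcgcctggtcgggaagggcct
KIT: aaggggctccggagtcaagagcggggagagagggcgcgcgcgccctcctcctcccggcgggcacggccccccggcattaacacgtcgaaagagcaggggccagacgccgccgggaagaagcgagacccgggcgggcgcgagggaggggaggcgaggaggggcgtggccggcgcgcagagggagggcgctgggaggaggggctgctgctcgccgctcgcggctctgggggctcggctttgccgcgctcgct

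IL6R held the one RUNX match, ACCGCA, which is TGCGGT on the other strand, 45 bases before its start. EPOR held a GATA match, TTATCT, 78 bases before its start, and IL6ST an ETS match, CCGGAA, 244 bases before its start. The KIT bases held none of the 4 sets of letters. Over all 22199 start windows of protein-coding genes, TGTGGT was found in 9.36%, TGCGGT in 6.82%, AGATAA in 7.09% and CCGGAA in 18.0%. In the 1753 windows touched by a region called in all 6 libraries the shares were 10.6%, 15.4%, 2.4% and 25.5%. The windows shown were rich in G and C, with 73.6% in IL6ST, 65.2% in IL6R, 62.0% in EPOR and 76.4% in KIT.

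All 8 genes had a region in at least 1 library (80.9% of all protein-coding genes did), and 7 of the 8 had a region called in all 6 libraries. The exception was KIT. Over all protein-coding genes 30.5% had a region in all 6 libraries within the same distance. The count of 7 was lower under stricter settings: it was 4 when peaks needed a −log10 q of 5 or more (24.2% of all genes) and 3 with each list cut to one common length (20.6%). With lists cut to equal length only within each replicate number it was 5 (28.2%). A window of 10 kb also gave 5, since the regions of JAK2 and CSF2RB lay farther out. For that window the share of all genes was not computed. Both WT replicates called a common region at 7 of the 8 genes (46.9% of all genes), both 4A replicates at 8 (42.7%) and both 4D replicates at 7 (39.2%). The genes had 3 to 9 regions each, with a median of 7.5, against a median of 3 with quartiles of 1 and 6 over all protein-coding genes. Their windows were longer, with a median of 155.4 kb against 124.1 kb, and per 100 kb the medians were 4.78 and 1.84 regions. Taken library by library, replicate 1 called a region at 7 genes in WT (47.9% of all genes), 8 in 4A (44.0%) and 7 in 4D (40.4%). Replicate 2 called one at all 8 in WT (75.9%), 4A (75.7%) and 4D (72.4%). A region touched the start window, from 250 bases before to 50 after a RefSeq start, at 5 of the 7 genes with such a window, against 42.6% of all genes with one. These counts describe a list that was chosen with earlier results of these data known. They are not a test of it, and they are not a measure of cytokine receptor genes as a class.

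**Figure D1:**
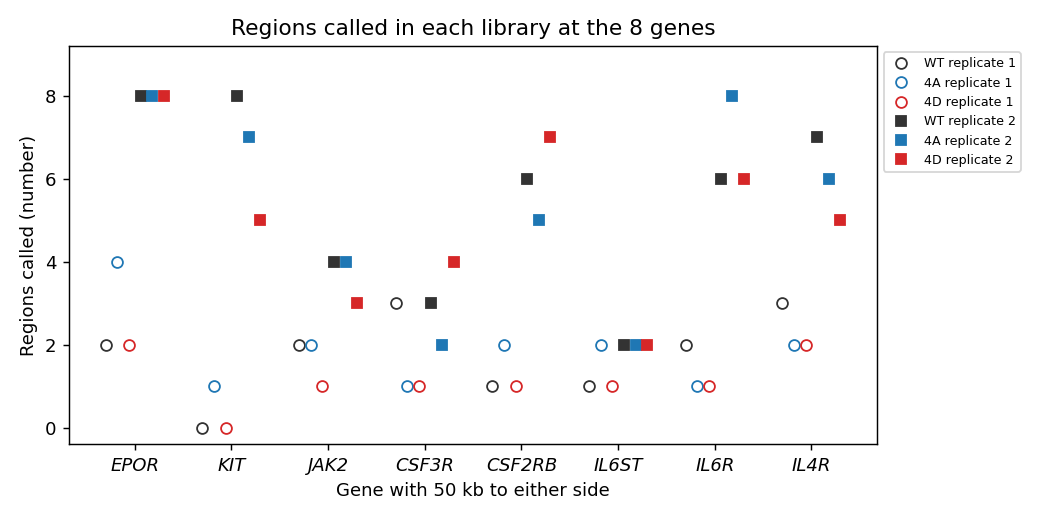
Number of regions called in each of the 6 libraries (vertical axis) within 50 kb of each of the 8 genes (horizontal axis); open circles are replicate 1, filled squares replicate 2, and colours mark the line. KIT had 5 to 8 regions in the replicate 2 lists and 0 or 1 in the replicate 1 lists, while EPOR had 8 in each replicate 2 list.

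Most of what was called near these genes came from the longer replicate 2 lists. Of the 52 regions, 7 were called in all 6 libraries (9.84% of all regions were) and 30, or 57.7%, in replicate 2 lists alone (72.6% of all regions were). Those 30 included 10 called in a single library (34.5% of all regions were), namely 3 in WT, 5 in 4A and 2 in 4D, each in replicate 2. The 22 regions with a replicate 1 call included 20 that were also in all 3 replicate 2 lists. That share was not computed over all regions, so it cannot be called particular to these genes. In WT all 14 regions of replicate 1 recurred in replicate 2, as did 14 of 15 in 4A and 9 of 9 in 4D. The same shares over all regions came to 97.0% (WT), 92.7% (4A) and 95.1% (4D).

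Of the 52 regions, 17 had their median summit inside the gene's own body. For 34 regions the gene of the list was also the nearest protein-coding gene. The other 18 lay closer to a neighbour, among them 7 of the 8 at EPOR and 4 of the 7 at IL4R. The region nearest to the limit of 50 kb on the inside was that beyond JAK2, 48.4 kb past the gene and called in 6 libraries. The nearest on the outside was also at JAK2, at 50.4 kb and called in 5.

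**Figure D2:**
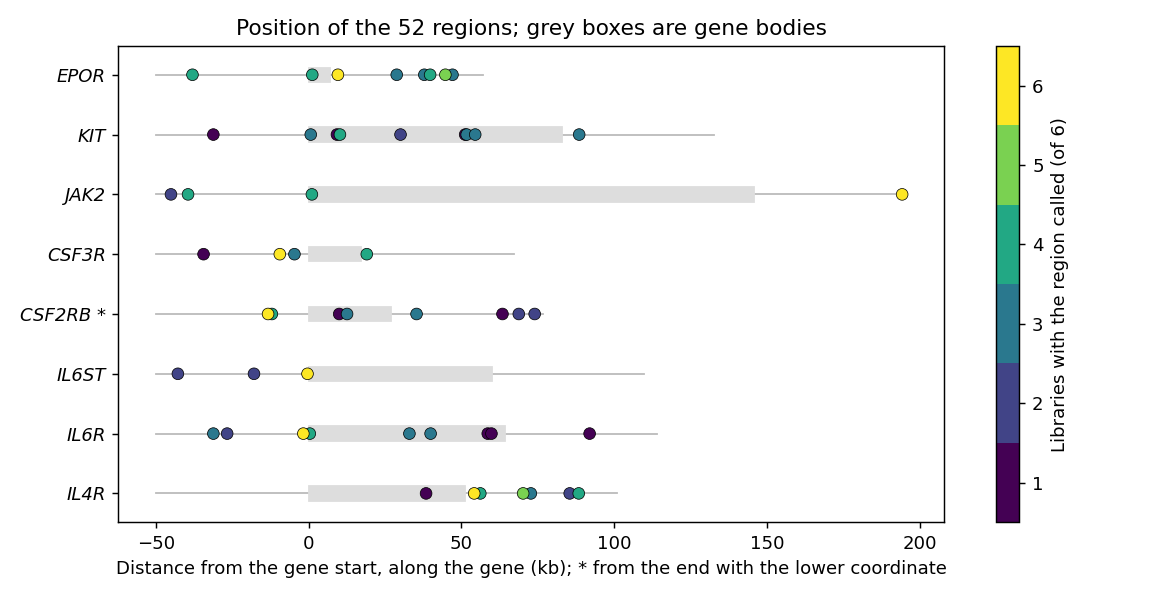
Position of the 52 regions as distance in kb from the gene start along each gene (for CSF2RB from its end with the lower coordinate), with gene bodies as grey boxes, thin lines for the 50 kb flanks, and colour for the number of libraries, of 6, that called the region. The 7 regions called in all 6 libraries lay outside the bodies in CSF3R, IL6R, CSF2RB, EPOR, IL4R and JAK2 and at the start in IL6ST.

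CSF3R is the receptor for G-CSF, the main growth factor of neutrophils, and it had the strongest region of the list. The region lay 9.43 kb upstream of the gene (chromosome 1, 36492306 to 36493471). Replicate 1 gave fold enrichments of 10.9 (WT), 11.1 (4A) and 12.0 (4D), and replicate 2 gave 28.5, 18.4 and 25.7. The replicate 2 lists gave the higher value in each line, and the lines overlapped. By −log10 q it ranked 33rd of 25911 peaks in WT replicate 2, 110th of 24251 in 4A replicate 2 and 26th of 21122 in 4D replicate 2. In the replicate 1 lists it ranked 602nd in WT, 344th in 4A and 206th in 4D. Its summits lay within 53 bp of each other in the 6 lists, the closest agreement among the 7 regions called in all 6.

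Between that region and the CSF3R start lay the only region of the 52 that was called in both replicates of one line and in neither of another. It lay 4.64 kb upstream (chromosome 1, 36487888 to 36488151). WT replicates 1 and 2 gave it a −log10 q of 4.78 and 5.00, 4D replicate 2 gave 9.13, and 4A had no call. Its percentiles were 17.8, 23.7 and 45.4, so it ranked below the middle of each list. Over all regions 0.269% were called in both WT and neither 4A. With lists cut to equal length within each replicate number, or when peaks needed a −log10 q of 5 or more, no region of the 8 genes had this pattern. At the other end of CSF3R a region 1.75 kb past the gene lay inside MRPS15, a protein of the mitochondrial ribosome (36463825 to 36464699). It was called in both WT replicates (−log10 q of 4.91 and 26.0) and in replicate 2 of 4A (14.8) and 4D (10.4). No region reached either RefSeq start of CSF3R.

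EPOR, the erythropoietin receptor on which red cell precursors depend for survival, had 8 regions in a window shared with 7 other protein-coding genes. The one called in all 6 libraries lay 2.47 kb past the 3′ end of EPOR, with its median summit 0.072 kb inside an end of SWSAP1, a gene of DNA repair by homologous recombination (chromosome 19, 11373748 to 11375151). Replicate 1 gave folds of 8.95 (WT), 10.5 (4A) and 8.82 (4D), and replicate 2 gave 7.63, 5.05 and 6.72. Unlike at CSF3R, replicate 1 gave the higher value in each line. WT replicates 1 and 2 and 4D replicate 2 listed 2 separate peaks inside this region, and the other lists 1.

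Inside EPOR a region reached from the body to just past the start (11382845 to 11384420). It was called in replicate 2 of WT (fold 13.3, −log10 q 35.8), 4A (4.41 and 11.3) and 4D (11.1 and 28.8), and in replicate 1 of 4A alone (5.41 and 5.02). The stretch was covered by 1 peak in WT replicate 2 and by 2 peaks each in 4A and 4D replicate 2. For 4A and 4D replicate 2 the values above belong to the peak in the body. The separate peak that reached the start had a fold of 2.91 and a −log10 q of 2.6 in 4A, and 4.24 and 6.72 in 4D. The 4A replicate 1 peak ended inside the gene, at 11383169. The summit of the strongest peak in each list with a call lay between 852.5 and 1394 bp from the GATA match shown above. Only the edge of the joined region reached the match. In 4A and 4D replicate 2 the match lay in the separate start peak, whose summit was not measured against it. The 4A replicate 1 peak did not reach it. The other 6 regions of this window lay 21.7 to 40 kb from EPOR. Among them, 1 at RAB3D, a small GTPase of secretory vesicles, was missing only from 4D replicate 1 (11338261 to 11339930). Replicate 2 gave folds of 23.5 for WT, 12.0 for 4A and 17.0 for 4D, against 5.6 and 4.2 in replicate 1 of WT and 4A. A region inside TMEM205 (11344437 to 11344690) was called in both 4A replicates (−log10 q 7.67 and 16.4) and in replicate 2 of WT (25.1) and 4D (30).

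CSF2RB encodes the beta chain shared by the receptors for IL3, IL5 and GM-CSF. Its region in all 6 libraries lay 13.3 kb outside the gene, on the side of its lower coordinate (chromosome 22, 36899673 to 36900951). The folds of replicate 1 were 4.63 (WT), 4.02 (4A) and 5.75 (4D), and those of replicate 2 were 14.3, 12.4 and 8.94. The replicates parted by more than the lines, since each replicate 1 value was below each replicate 2 value. Close by, a region at 12.0 kb (36901365 to 36901856) was called in both 4A replicates, with −log10 q of 8.45 and 12.3, and in replicate 2 of WT (20.6) and 4D (6.69). Within the gene body the strongest region (36925952 to 36926664) was called in replicate 2 lists only, with folds of 19.1 in WT, 7.28 in 4A and 13.4 in 4D. Altogether 8 regions lay around CSF2RB, of which 2 had a replicate 1 call.

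KIT, the receptor of stem cell factor and a marker of progenitors and mast cells, had 9 regions and no other protein-coding gene in its window. It was the one gene of the list without a region in all 6 libraries. The strongest region, as joined over the lists, covered the start (chromosome 4, 54657899 to 54659179, median summit 0.693 kb inside the gene). Only its WT peak covered the start itself, at 54657957. The 4A and 4D peaks began inside the gene, at 54658122 and 54658488. The region was called in the 3 replicate 2 lists and in no replicate 1 list. Its folds were 13.4 for the WT list, 10.9 for 4A and 8.61 for 4D. Its −log10 q of 45.7, 48.4 and 26.1 put it at percentiles 90.2, 91.0 and 79.5 of those lists. A region 5.75 kb past the 3′ end (54746035 to 54746666) had the same pattern, with summits within 3 bp. Its −log10 q was 35.6 in the 4A list, 26.7 in the WT list and 14.8 in the 4D list.

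In the first part of the KIT body, 10.2 kb from the start, lay the one KIT region with a replicate 1 call (54667764 to 54668461). That call was in 4A, with a −log10 q of 3.53 at percentile 15.3 of the list. The replicate 2 values of −log10 q were 36.2 (WT), 24 (4A) and, lowest, 3.95 (4D). Calling KIT in both 4A replicates thus rested on a low-ranked peak, and the call ended when peaks needed a −log10 q of 5 or more. The 5 remaining regions of the body included 2 called in the 3 replicate 2 lists (from 54709407 and from 54712349), with folds of 3.88 to 6.64. Over all regions 22.3% were in the 3 replicate 2 lists and no replicate 1 list, as were 13 of the 52.

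IL6ST encodes gp130, the signalling chain shared by the receptors for IL6 and its relatives. It was the only gene of the 7 with a RefSeq start window at which that window was touched by a region in all 6 libraries. Of all protein-coding genes with such a window, 8.87% were. The region (chromosome 5, 55994687 to 55995709) covered the whole sequence shown above. Replicate 1 listed folds of 8.87 (WT), 6.66 (4A) and 4.56 (4D), and replicate 2 listed 16.3, 14.6 and 11.1. WT had the highest and 4D the lowest value in each replicate, and the spread between replicates was wider than that between lines. The summits lay 97.5 to 261.5 bp from the ETS match. Farther upstream, the regions at 17.9 and 42.8 kb were each called in 2 libraries, the first in 4A replicate 1 and 4D replicate 2.

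IL6R, the chain that binds IL6 and hands it to gp130, had 9 regions. The one in all 6 libraries lay 1.74 kb upstream of the start (chromosome 1, 154403390 to 154403940), with summits within 68 bp of each other. Replicates 1 and 2 gave folds of 6.89 and 8.07 for WT, 11.9 and 5.80 for 4A, then 8.98 and 9.05 for 4D. The highest value was in 4A replicate 1 and the lowest in 4A replicate 2, so the lines overlapped.

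A second IL6R region, over the start itself (154405185 to 154406168), was called in both WT replicates (−log10 q of 4.58 and 18.3) and in replicate 2 of 4A (6.80) and 4D (17.1). The summit of WT replicate 1 lay 19.5 bp from the centre of the ACCGCA match. Those of the replicate 2 lists lay 367.5 bp from it in WT, 523.5 bp in 4A and 473.5 bp in 4D. Within the body, 4A replicate 2 alone called 2 regions of low rank, at percentiles 3.01 and 11.2.

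IL4R encodes the alpha chain that binds IL4 and IL13. No region reached its start, and the region called in all 6 libraries lay 3.14 kb past its 3′ end (chromosome 16, 27367595 to 27368278). Its percentiles ran from 3.83 in WT replicate 1 to 39.8 in 4A replicate 1, with the lowest mean of the 7 such regions, 22.6, and its summits were the most scattered, over 423 bp. Replicate 1 had folds of 4.95 (WT), 6.82 (4A) and 5.28 (4D), against 3.93, 4.07 and 4.38 for replicate 2. Next to it a region at 5.14 kb (27369830 to 27370306) was called in both 4A replicates and in replicate 2 of the other lines, with its highest −log10 q, 13.5, in 4A replicate 1.

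Stronger regions of the IL4R window lay toward IL21R, which encodes a receptor of lymphocytes. One at 19.1 kb from IL4R (27383593 to 27384314) was missing only from 4A replicate 1. Its fold was 6.55 and 21.4 in WT, 18.3 in 4A replicate 2, and 4.05 and 12.7 in 4D. Another lay 0.047 kb from an end of IL21R (27401864 to 27402530), with folds of 4.83 and 19.0 in WT, 13.2 in 4A replicate 2 and 6.69 in 4D replicate 2. Its percentile in WT replicate 1 was 6.06.

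JAK2 had the longest gene body of the list, 145.6 kb, and 4 regions. The start region (chromosome 9, 4984557 to 4985693) was called in both WT replicates and in replicate 2 of 4A and 4D, with replicate 2 folds of 5.95 in WT, 4.21 in 4A and 3.60 in 4D. In WT replicate 1 its −log10 q of 1.55 lay close to the lowest in that list, 1.41. The joined region covered the bases before the RefSeq starts at 4985086 and 4985272, which held none of the 4 sets of letters. The WT replicate 1 peak did not, since it began past both starts, at 4985336. No other region lay inside JAK2. Upstream at 39.5 kb a region (4944720 to 4945115) was called in both 4A replicates (−log10 q of 2.63 and 18.4) and in replicate 2 of WT (47.8) and 4D (28.6).

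The JAK2 region in all 6 libraries lay 48.6 kb past the gene, inside INSL6, a gene of the relaxin family (5178300 to 5178900). Folds of 6.70 (WT), 7.63 (4A) and 9.43 (4D) were listed in replicate 1 and of 18.3, 13.1 and 13.7 in replicate 2. The −log10 q values were 26.8, 30.6 and 33.2, then 126, 127 and 108. Replicate 2 was higher in each line on both measures. By −log10 q it stood at percentiles 84.3 (WT), 91.8 (4A) and 96.0 (4D) of the replicate 1 lists, but by fold enrichment at 39.6, 58.5 and 76.0. In the replicate 2 lists the measures lay closer together, at 99.0, 98.9 and 98.5 by −log10 q and 94.8, 93.2 and 91.8 by fold.

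**Figure D3:**
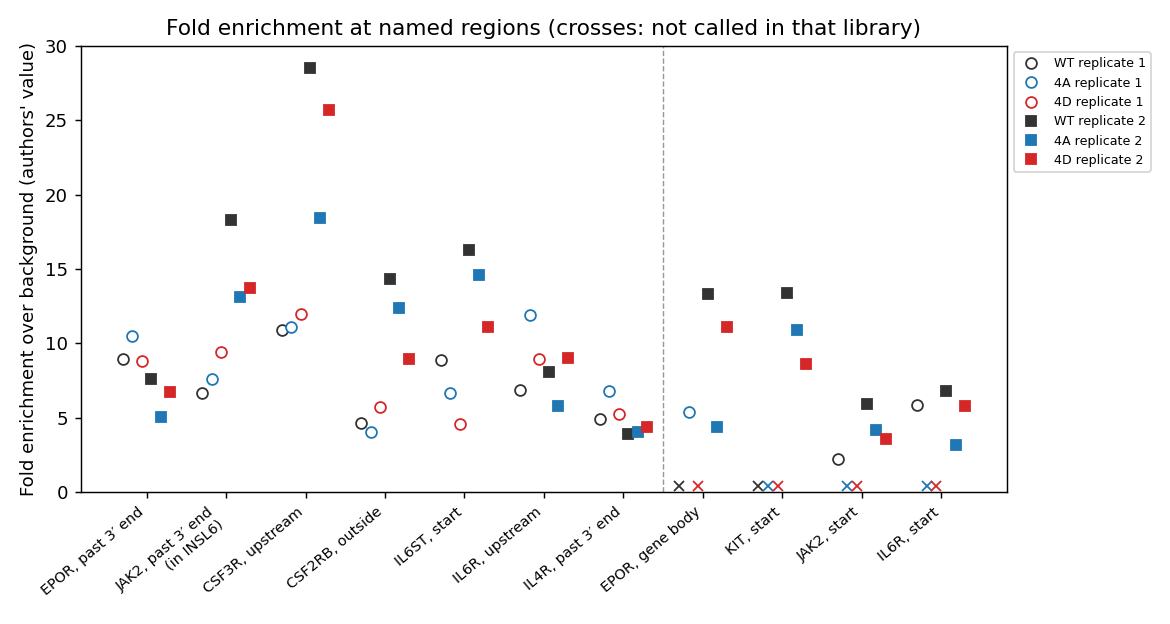
The authors' fold enrichment over background (vertical axis, linear) in each library at the 7 regions called in all 6 libraries (left of the dashed line) and at the regions over or near the start of EPOR, KIT, JAK2 and IL6R (right); open circles are replicate 1, filled squares replicate 2, and crosses mark libraries without a call. The CSF3R upstream region has the highest value, 28.5 in WT replicate 2. Of the 4 regions on the right, WT replicate 1 called those of JAK2 and IL6R, 4A replicate 1 that of EPOR, and 4D replicate 1 none. Of all 33478 regions, these lists held 6576, 6127 and 5215.

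Peaks at JAK2 had a far higher −log10 q than other peaks of like fold enrichment. This comparison was added after the values were seen. Each peak was set against the peaks of its own list whose fold lay within 10% of its own. Of the 17 peaks in the JAK2 window, 14 had at least 20 such peaks, and all 14 lay above percentile 95 for −log10 q, with a median of 99.5 over the 17. None of 37 peaks at EPOR, 21 at KIT, 10 at IL6ST, 24 at IL6R and 25 at IL4R did, while 1 of 22 at CSF2RB and 6 of 14 at CSF3R did. The 6 at CSF3R were those of the strong upstream region. The peaks of a window came from the same few regions called in several lists, with 4 regions at JAK2 and 8 at EPOR. They are therefore not separate observations.

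High percentiles of this kind extended along chromosome 9 on both sides of JAK2 in the replicate 2 lists. In bins of 5 Mb from 5 Mb before to 15 Mb after the JAK2 start, the median percentile was 97.6 to 99.2 in WT, 97.5 to 98.8 in 4A and 97.1 to 98.6 in 4D. The bin from 20 to 25 Mb stood between, at 88.5 in WT and 91.4 in 4A. From 25 Mb onward the medians were 21.1 to 35.8, 14.0 to 38.1 and 19.7 to 43.9. Bins with fewer than 20 peaks in a list were left out. Chromosome 9 was not alone in having high values, since the median over the whole of chromosome 21 was 87.6 in WT, 87.1 in 4A and 86.3 in 4D. The other autosomes had medians between 26.5 and 65.9 in the 3 replicate 2 lists. Of the 5 Mb bins of all autosomes, cut from the chromosome start, 4 had a median above 95 in each of the lists, all 4 on chromosome 9 (0.969% of 413 bins in WT). A −log10 q grows with the number of reads as well as with the fold, and the number of reads was not given in the files. Copy number was not measured here and its part in these values was not tested.

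**Figure D4:**
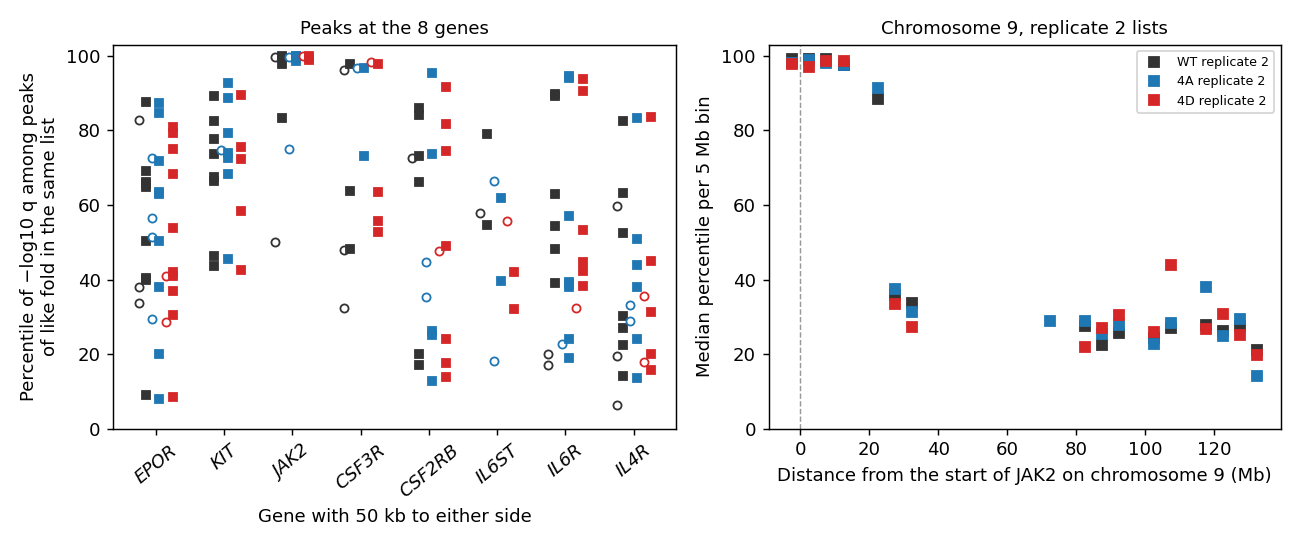
Left, the percentile of each peak's −log10 q among peaks of its list with a fold enrichment within 10% (vertical axis) for the peaks at the 8 genes; right, the median of the same percentile in 5 Mb bins along chromosome 9 by distance from the JAK2 start, replicate 2 lists, with at least 20 peaks a bin. Peaks at JAK2 with enough like peaks lie above 95, and the bins change from above 97 near JAK2 to below 44 from 25 Mb onward.

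Between the lines, no difference in the number of regions at these genes was larger than the spread between replicates, which holds the gap in list length between replicates 1 and 2. WT had 14 and 44 regions (29.0 ± 21.2, SD, n = 2), 4A had 15 and 42 (28.5 ± 19.1) and 4D had 9 and 40 (24.5 ± 21.9). The difference per library was −0.5 for 4A against WT (two-sided exact permutation p = 1.0), −4.5 for 4D against WT (p = 0.667) and −4.0 for 4D against 4A (p = 0.667). With 2 libraries against 2 the exact permutation test cannot go below p = 0.333. Within a replicate number, 4D had 5 and 4 fewer regions than WT and 6 and 2 fewer than 4A, while 4A had 1 more and 2 fewer than WT. The 4D lists were also shorter as a whole, with 20.7% and 19.4% fewer regions than WT. With lists of equal length within each replicate number the difference for 4D against WT turned to 1.0 and that for 4A against WT to 2.0.

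Of the regions called in both replicates of one line and in neither of another, the 8 genes had 1 for WT not 4A and 0 for the other 5 directions. Over all regions the shares were 0.206% for 4A not WT, 0.472% for WT not 4D, 0.114% for 4D not WT, 0.669% for 4A not 4D and 0.314% for 4D not 4A. Other regions were called in all 3 replicate 2 lists and in replicate 1 of a single line. For 6 of the 52 that line was 4A (2.71% of all regions had this pattern), at EPOR (its body and TMEM205), KIT, JAK2, CSF2RB and IL4R. For 4 it was WT (3.41% of all regions), namely the start regions of JAK2 and IL6R, the MRPS15 region at CSF3R and the region at the end of IL21R. For 1 it was 4D (1.58% of all regions), inside ODAD3, a gene of ciliary dynein assembly, in the EPOR window (−log10 q of 2.63 in 4D replicate 1). Whether these differences exceed the spread between cultures could not be tested with 1 such library a line.

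The other genes of the pathway comprised 38 receptors, 3 Janus kinases and 12 ligands of the members. Of the receptors 14 (36.8%) had a region in both WT replicates, 17 (44.7%) in both 4A and 10 (26.3%) in both 4D, and 10 in all 6 libraries. The shares over all protein-coding genes, as above, were 46.9%, 42.7%, 39.2% and 30.5%, so these receptors lay near or below the background. Of the Janus kinases all 3 did in WT and in 4A and 1 in 4D, which was TYK2, and of the ligands 6 in each line. The 53 genes had a median of 3 regions, the same as over all protein-coding genes, and 9 of them (17%, against 19.1% of all genes) had none, among them KITLG, the ligand of KIT, and IL4 and IL6. EPO and CSF3, the ligands of EPOR and CSF3R, had 3 and 4 regions, none of them in both replicates of a line.

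Of the 17 genes with a region in all 6 libraries, the 10 with the highest mean percentile were IL27RA (96.6), IL10RA (95.6), IFNAR2 (93.8), TYK2 (91.8), IL20RA (90.5), IL3 and CSF2 (80.8), IL9R (80.6), and OSM and LIF (80.1). IL3 and CSF2 share a region that lies between them (chromosome 5, 132068881 to 132071384), with folds of 6.97 to 24.7 in the 6 lists. OSM and LIF share 1 that lies 0.301 kb from OSM (chromosome 22, 30266640 to 30267591). The region counted for IL27RA lay 24.6 kb from the gene and that for TYK2 50.5 kb from it by its summit, with its edge inside the window. IL21R shares its region in all 6 libraries with IL4R.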

How the data were processed

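Per the submitters' processing notes, MACS2 2.2.7.1, deepTools 3.5.1, Picard 2.25.6, Bowtie2 2.4.2 and cutadapt 3.4 were used upstream on hg38. The 6 deposited peak lists (WT, 4A and 4D, each replicate its own) give a score, a fold enrichment (a linear ratio over background) and the −log10 of p and q as the authors' caller wrote them, and no header. The score, which is 10 times the −log10 q cut to a whole number, was not used. Pooling of the empty vector libraries and read filters are not given in the sources used here. Only peaks on assembled chromosomes entered the work, done with python 3.11.15, numpy 2.4.6 and pandas 2.3.3. A region counted as called where a list had a peak in it, and the strongest peak gave its values. Genes and start windows came from RefSeq tables of GRCh38.p14. CSF2RB had no start window in the table. Exact permutation tests were run over libraries. Members and gene lists were chosen with earlier results of these data known. All 8 members were named, with regions in all 6 libraries, the most widely called region and any that parted 2 lines. Other regions and neighbouring genes were named after their values were seen. Region joining and counting were tested on simulated peak lists.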

Additional observations from a re-analysis of the deposited data

How the results depend on the processing

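Read depth is unknown, and counts moved with the threshold, the list length, the window and the use of summits. When peaks needed a −log10 q of 5 or more, 4 of the 8 genes kept a region in all 6 libraries (EPOR, JAK2, CSF3R and IL6R). At this setting 24.2% of all protein-coding genes had one, and 4 such regions remained at the 8 genes. With all lists at one length 3 genes (JAK2, CSF3R and IL6ST) and 3 regions remained, against 20.6% of all protein-coding genes. Genes with a region in both replicates numbered 4 in 4D under that minimum and 4 in 4A under the common length. A window of 100 kb gave 11 regions in all 6 libraries. A window of 10 kb gave 5 such regions at 5 genes. In that window 6 genes had a region in both replicates of WT, 6 in both of 4A and 5 in both of 4D. The difference per library for 4A against WT turned to 0.5 with all lists at one length and 2.0 with equal lengths within each replicate number, and that for 4D against WT to 1.0 with the latter. Regions in both WT and neither 4A numbered 0 under the minimum of 5, 0 under the common length, 0 with equal lengths within each number and 2 with summit windows of 100 bp. Regions in both 4A and neither WT numbered 1 under the minimum of 5, and with summit windows those in WT not 4D and in 4D not 4A numbered 1 each. The cause of these moves was not tested.

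Leaving out replicates, singly (chosen after seeing the data, for the counts in all 6 libraries) or by number, genes with a common region ranged from 7 to 8 in WT, 8 to 8 in 4A, 7 to 8 in 4D and 7 to 8 over all libraries, and regions in every library kept from 7 to 33, the highest without replicate 1. A region then needed fewer calls, so these counts could only stay or rise and do not show stability. Without a replicate number, each line had 1 library, and a common region of a line meant a call in that library. The difference per library ranged from −2.0 to 1.0 (4A against WT), −5.0 to −4.0 (4D against WT) and −6.0 to −2.0 (4D against 4A). Regions in a line and not in another, by 1 replicate alone, ranged from 6 to 7 (WT not 4A), 5 to 7 (4A not WT), 6 to 7 (WT not 4D), 1 to 3 (4D not WT), 8 to 9 (4A not 4D) and 2 to 7 (4D not 4A). The matching shares over all regions were not computed, so these counts cannot be called particular to the 8 genes. Within each replicate number the 4D list was shorter than the WT and 4A lists. The part of list length in these counts was not tested. Permuting the lines within replicate numbers (a replicate block) left the differences at −0.5, −4.5 and −4.0, with exact permutation p = 1.0, 0.5 and 0.5, where 0.5 is the smallest it can give. The labels do not say that a number marks a shared batch; over all regions the deviations of same-numbered libraries correlated at 0.107 (4A and WT), 0.183 (4D and WT) and 0.116 (4D and 4A).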
